A study of Mus musculus with 4 samples.

Results

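Peroxiredoxins, thioredoxins and thioredoxin reductases form 1 connected peroxide-removing system, and its 10 mouse genes Prdx1 to Prdx6, Txn1, Txn2, Txnrd1 and Txnrd2 were followed here. They were chosen by gene symbol, and all 10 matched 1 gene model each among the 55401 gene models in the files. RNA was sequenced from long-term hematopoietic stem cells (HSCs, the ltHSC of the labels, called stem and progenitor cells in the study's text) sorted from mouse bone marrow. The Control group (n = 2, genotype label WT) carried floxed Cpt1a (Cpt1a fl/fl), and the KO group (n = 2, Cpt1a-KO) lacked Cpt1a in the cells where Vav1-Cre is active. Per the study's methods, the mice were C57BL/6 animals 8 to 12 weeks old of both sexes, and the Vav1 promoter drives Cre in the whole hematopoietic system, so progeny of the HSCs carry the deletion too. Cpt1a encodes the enzyme that loads long-chain fatty acids onto carnitine at the mitochondrial outer membrane for oxidation.

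Peroxiredoxins reduce hydrogen peroxide and organic peroxides with a cysteine in their active site, and most of them hand the resulting disulfide to a thioredoxin. Thioredoxin is in turn reduced by a thioredoxin reductase, a selenoprotein that draws its electrons from NADPH. The system is split between compartments. Prdx1, Prdx2, Txn1 and Txnrd1 work mainly in the cytosol, Prdx3, Txn2 and Txnrd2 in mitochondria, Prdx4 in the endoplasmic reticulum, Prdx5 in several compartments, and Prdx6 uses glutathione in place of thioredoxin. Prdx2 is also 1 of the most abundant proteins of red cells, which lack mitochondria.

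The coding sequence around the catalytic residue is shown for each member because it is what the family shares and where its classes differ. The 30-base stretches come from the GENCODE M21 transcripts (GRCm38, the assembly also called mm10), 5′ to 3′. Capitals mark the codon of the peroxide-reacting cysteine in the peroxiredoxins, the 4 codons of the Cys-Gly-Pro-Cys active site in the thioredoxins, and the in-frame TGA read as selenocysteine in the reductases.
Prdx1: acttttgtgTGTcccacggagatcattgct
Prdx2: acttttgttTGCcccacggagatcatcgct
Prdx3: acatttgtgTGTcctacagaaattgttgct
Prdx4: acctttgtgTGTccaactgaaatcatcgct
Prdx5: acacctggcTGTtctaagacccacctgcct
Prdx6: accccagtgTGCaccacagaacttggcaga
Txn1: gctacgtggTGTGGACCTTGCaaaatgatc
Txn2: gcacagtggTGTGGCCCCTGCaagatccta
Txnrd1: gacatcctccagtctggctgcTGAggttaa
Txnrd2: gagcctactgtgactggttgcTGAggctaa

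Over whole coding sequences, Prdx1 and Prdx2 were 70.0% identical at aligned bases, whereas Prdx2 and Prdx5 were 46.4% identical. The longest run of identical bases between any pair of the peroxiredoxins was 23, between Prdx2 and Prdx4. Txn1 and Txn2 shared 58.2% of aligned coding bases, and Txnrd1 and Txnrd2 shared 58.9%. In both reductases only a glycine codon stands between the selenocysteine codon and the stop codon. The selenocysteine codon is number 498 of 499 in Txnrd1 (chr10:82896037-82896039) and number 526 of 527 in Txnrd2 (chr16:18477772-18477774). No other gene model held 90% or more of its own sequence in a member. The nearest were the processed pseudogenes Gm21399 (52.6% of its 31-base words found in Prdx1) and Tdpx-ps1 (37.4% in Prdx2).

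The libraries held 20589218 and 23291747 expected counts in Control replicates 1 and 2, and 34083159 and 33909781 in KO replicates 1 and 2. Cpt1a itself read 37.0 and 35.6 TPM (the share of all transcripts, scaled to a fixed total, a level corrected for transcript length and depth) in Control and 11.5 and 19.2 TPM in KO. Its log2 fold change was -1.60 with a standard error (SE) of 0.15 (edgeR adjusted p = 0.00695). The stem cell list was detected in full, with Kit between 232 and 275 TPM, Procr between 29.5 and 55.0 TPM and Slamf1 between 2.88 and 4.83 TPM. Of its 15 genes, 0 had an edgeR adjusted p under 0.05. At an unadjusted edgeR p under 0.05, 1 was higher and 4 were lower in KO, beside 5.81% and 4.61% of all genes tested. Cells were selected on c-Kit beads and then sorted on stem cell surface markers. Granulocyte genes were nonetheless plentiful, among them the progenitor-stage granule gene Mpo at 1639 to 2959 TPM and S100a9 at 1453 to 2919 TPM. Other granule genes of the same list were also well detected. Ngp was at 352 to 865 TPM, Camp at 205 to 433 TPM, Ltf at 64.9 to 219 TPM and Lcn2 at 89.5 to 186 TPM. The late neutrophil gene Mmp8 was low, at 0.40 to 1.47 TPM. Immediate early genes summed to 7614 TPM in Control replicate 2 and to between 463 and 698 TPM in the other libraries.

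All 10 members were well detected, with between 546 and 7140 expected counts in every library, and all passed the filter on low counts. Prdx2 read 0.643 times its Control level in the KO libraries and was the only member whose change passed the test, with the least margin of all calls. Prdx4 and Prdx1 stood higher in both KO libraries than in both Control libraries, and Prdx6, Prdx5, Txnrd1 and Txnrd2 stood lower, but none of these differences passed the test. Prdx3, Txn1 and Txn2 overlapped between the groups. The main test was edgeR's quasi-likelihood test over 14635 genes with Benjamini-Hochberg adjustment. Of those genes, 0.663% were called in either direction, 0.451% higher and 0.212% lower in KO. The members' median log2 fold change was -0.21, beside 0.01 over all genes tested. At an unadjusted p under 0.05, 1 member was higher and 3 were lower, beside 5.81% and 4.61% of all genes and 10.4% in either direction. DESeq2 called 1 member higher and 3 lower, and over all genes it called 4.29% higher, 3.55% lower and 7.84% in either direction. Both KO libraries lay above both Control libraries in TPM for 2 members (23.1% of all genes did so) and below them for 5 (16.8%), so that 7 of 10 did not overlap, beside 39.9% of all genes.

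**Figure D1:**
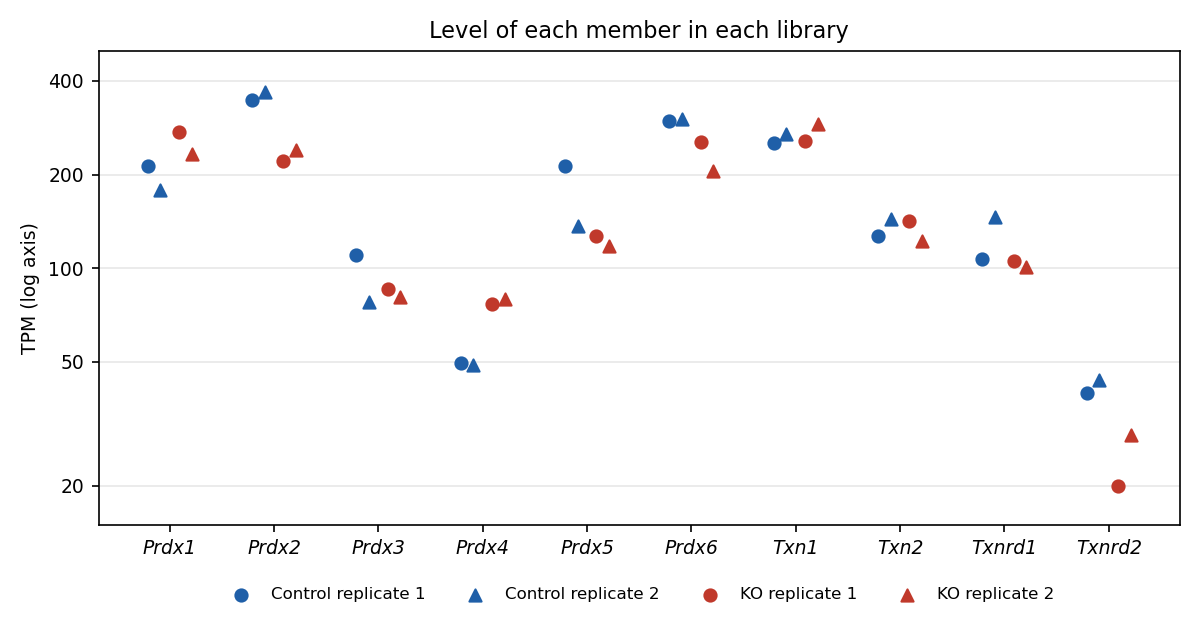
Level of each member in TPM, on a log axis, in each of the 4 libraries (blue, Control; red, KO; circles, replicate 1; triangles, replicate 2). Prdx2 stands at 347 and 369 TPM in Control and at 221 and 239 TPM in KO, and Prdx4 is the member whose replicates lie closest together within each group.

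Prdx2, the cytosolic peroxiredoxin that is plentiful in red cells, lies at chr8:84969587-84974834 on the plus strand. It read 347 and 369 TPM in the Control libraries and 221 and 239 TPM in the KO libraries, a mean of 358 ± 15.7 against 230.1 ± 13.1 TPM (SD, n = 2 each). The groups did not overlap, and the gap between them was several times the spread within either. Its log2 fold change was -0.57 (SE 0.094, 95% interval -0.79 to -0.35, edgeR adjusted p = 0.0497). Ranked by p, it was number 97 of the 97 genes called. In CPM, counts scaled to the library total without a length correction, the replicates were nearly equal, at 280.8 and 280.6 in Control and 189 and 189 in KO. The direction and size held with each library left out in turn, at -0.57 to -0.56. The call did not, since the edgeR adjusted p was 0.326 without KO replicate 1 and 0.270 without KO replicate 2. It was 0.0211 without Control replicate 1 and 0.0210 without Control replicate 2. With limma on log2(TPM + 1) the difference was -0.64 (limma adjusted p = 0.331), and with the effective transcript length as an offset in edgeR it was -0.66 (edgeR adjusted p = 0.262).

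The Prdx2 gene model shares 173 exon bases with Junb and 177 with Rnaseh2a, both on the opposite strand. No source used here states whether counting took strand into account. Without strand, reads that lie only in these bases would fit both genes. RSEM also gives a posterior SD for each count, its uncertainty in dividing reads among genes. For Prdx2 it was 0 and 0.12 reads in Control replicates 1 and 2, and 0.43 and 0.25 reads in KO replicates 1 and 2. Junb, an immediate early transcription factor, read 90.6 TPM in Control replicate 1, 500 TPM in Control replicate 2, and 51.7 TPM in each KO library. Junb was lower in Control replicate 1 than in Control replicate 2, and Prdx2 was about as high in both. Without Control replicate 2 the Prdx2 log2 fold change was -0.57. Junb was still higher in Control replicate 1 than in the KO libraries, and the part of the shared bases in the Prdx2 difference was not tested. Rnaseh2a overlapped between the groups, at 96.1 and 172 TPM in Control and 127 and 191 TPM in KO.

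Genes of the erythroid lineage were lower in the same KO libraries. Of 30 erythroid marker genes 28 were tested, 11 were called lower and 0 higher, and the median log2 fold change was -1.53. With the effective length offset or with limma, 0 of them were called, with medians of -1.47 to -1.41, and 4 were called without KO replicate 1 and 19 without Control replicate 2. Their summed level was 2405 and 2459 TPM in Control and 1039 and 1208 TPM in KO. The early erythroid transcription factor Klf1 read 68.7 and 49.2 TPM in Control and 22.2 and 19.2 TPM in KO (log2 fold change -1.55, edgeR adjusted p = 0.0328). Aqp1, the red cell water channel, fell by 1.49 on the log2 scale (edgeR adjusted p = 0.00506). Alas2, the erythroid heme synthesis enzyme, was listed at 0 in all 4 libraries, and Slc4a1, the anion exchanger of mature red cells, was listed at 0 in 3 of them and at 1.04 TPM in Control replicate 1. In bulk samples, fewer cells of a type and less RNA per cell cannot be told apart. The part of the erythroid RNA in the Prdx2 difference was not tested. B cell markers moved the other way: 10 of 12 were called higher in KO, with summed levels of 340 and 475 TPM in Control and 1289 and 1003 TPM in KO. Mast cell markers did so too, with 5 of 10 called higher and sums of 122 and 68.2 TPM against 424 and 502 TPM. The B cell calls numbered 0 with the length offset, 1 with either limma fit and 4 without KO replicate 1, and the mast cell calls 3, 3 and 1 with the offset and the limma fits. The neutrophil list had 1 of 14 tested genes called lower, and its sums were 12063 and 8276 TPM in Control and 6449 and 6634 TPM in KO. It had 11 genes called lower without Control replicate 2, 3 without Control replicate 1, 2 without KO replicate 2 and 1 without KO replicate 1.

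**Figure D2:**
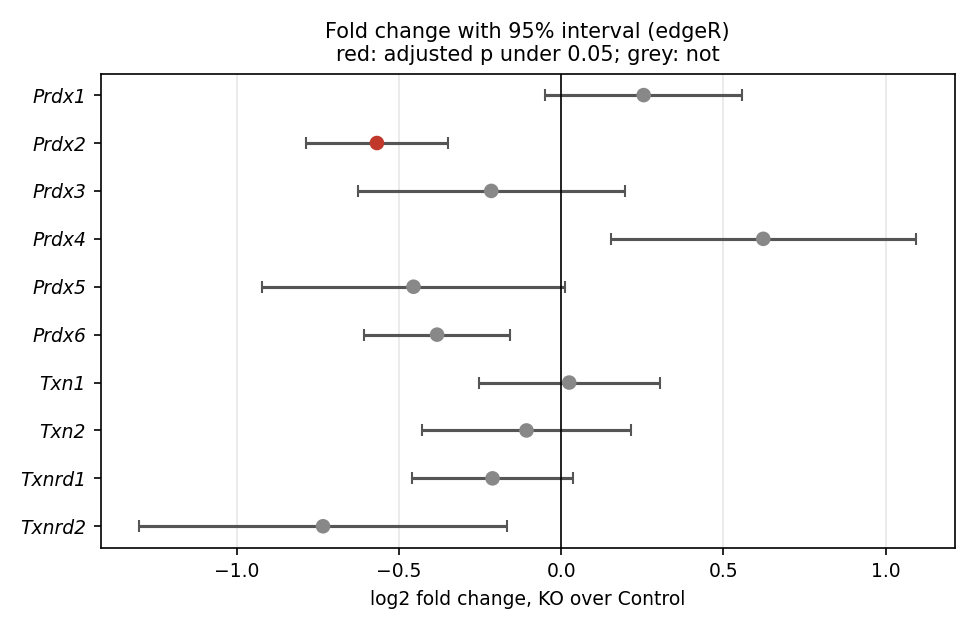
Log2 fold change of each member, KO over Control, with its 95% interval from edgeR (n = 2 libraries per group; red, adjusted p under 0.05; grey, not). The Prdx2 interval runs from -0.79 to -0.35, and Prdx4, Prdx6 and Txnrd2 also have intervals that leave out 0 without passing the adjusted test.

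Prdx1 (chr4:116685544-116700822, plus strand), the cytosolic relative most like Prdx2, went the opposite way in level. It read 213 and 178 TPM in Control and 275 and 234 TPM in KO. Both KO libraries were the higher ones. However, the nearest values of the groups, 213 TPM in Control and 234 TPM in KO, were closer together than the replicates of either group. The log2 fold change was 0.25 (SE 0.13, 95% interval -0.05 to 0.56, edgeR adjusted p = 0.556), and without Control replicate 2 it was 0.11. The ratio of Prdx1 to Prdx2 TPM was 0.614 and 0.483 in the Control libraries and 1.24 and 0.976 in the KO libraries. This ratio was chosen after its values were seen and was not tested. About 15.2% of the 31-base words of Prdx1 also occur in other gene models, mainly pseudogenes, compared with 7.36% for Prdx2.

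Prdx4 (chrX:155323918-155340754, minus strand) encodes the peroxiredoxin that enters the secretory pathway and supports disulfide formation in the endoplasmic reticulum. It read 49.6 and 49.0 TPM in Control and 76.7 and 79.5 TPM in KO, so that the groups were apart by far more than their replicates. Its log2 fold change of 0.62 (SE 0.20, 95% interval 0.15 to 1.09) was the largest increase among the members but did not pass the test (edgeR adjusted p = 0.363). DESeq2 on the same counts gave 0.62 and called it (DESeq2 adjusted p = 0.00416). The value lay between 0.59 and 0.66 with any 1 library left out.

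Prdx6 (chr1:161240112-161251219, minus strand) carries both a glutathione-dependent peroxidase and a phospholipase activity. Its level was 297 and 301 TPM in Control and 254 and 206 TPM in KO. Both KO libraries were lower, and they differed from each other more than the Control libraries did. The log2 fold change was -0.38 (SE 0.098, 95% interval -0.61 to -0.16, edgeR adjusted p = 0.233), and DESeq2 called it (DESeq2 adjusted p = 9.95e-05). In CPM the KO replicates were closer, at 201 and 211 against 262 and 275 in Control, and RSEM's effective length for Prdx6 was 1122 bases in KO replicate 1 and 1424 bases in KO replicate 2.

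Prdx5 (chr19:6906697-6910106, minus strand), which is found in mitochondria, peroxisomes and cytosol, rested on 1 library. It read 213 TPM in Control replicate 1, 136 TPM in Control replicate 2, and 127 and 118 TPM in the KO libraries. Control replicate 1 stood apart, and Control replicate 2 was close to the KO libraries. The log2 fold change was -0.46 (SE 0.20, 95% interval -0.92 to 0.01, edgeR adjusted p = 0.493). It was -0.09 without Control replicate 1, and -0.74 without Control replicate 2, where it passed the test (edgeR adjusted p = 0.0181). Prdx5 shares 409 exon bases with Trmt112 on the opposite strand, and Trmt112 overlapped between the groups at 208 to 244 TPM.

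Prdx3 (chr19:60864051-60874556, minus strand), the peroxiredoxin of the mitochondrial matrix, read 111 and 77.9 TPM in Control and 85.8 and 80.8 TPM in KO. The KO values lay between those of the Control libraries. The log2 fold change was -0.22 (SE 0.18, 95% interval -0.63 to 0.20, edgeR adjusted p = 0.767), and it was 0.05 without Control replicate 1, so its sign rested on that library.

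The make-up of the peroxiredoxin pool was also compared between the groups, as the share of each gene within a library. The summed TPM of the 6 genes was 1229 and 1112 in Control and 1040 and 957 in KO. Prdx2 made up 28.2% and 33.2% of the sum in Control and 21.2% and 25.0% in KO. Prdx1 made up 17.3% and 16.0% in Control and 26.4% and 24.4% in KO. The Prdx4 share was 4.03% and 4.41% in Control and 7.38% and 8.31% in KO. For these 3 genes the shares did not overlap between the groups, whereas those of Prdx6 did, at 24.1% and 27.1% against 24.5% and 21.5%. Shares sum to 100%, so a lower share of 1 gene raises the others, and with 2 libraries in each group they were not tested.

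**Figure D3:**
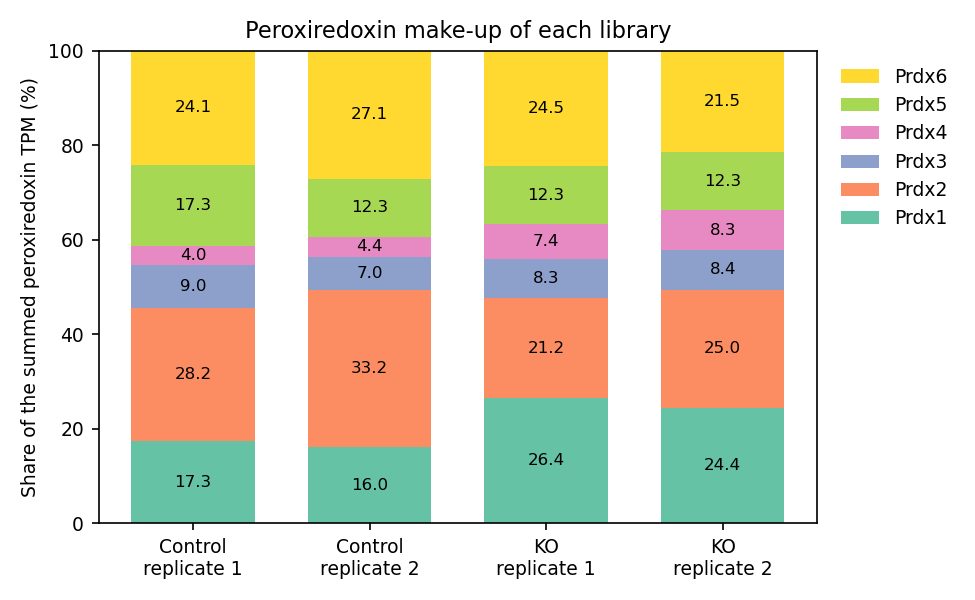
Share of each peroxiredoxin gene in the summed TPM of the 6 genes, in percent, for each of the 4 libraries (stacked bars from 0 to 100%). Prdx2 takes 28.2% and 33.2% in Control and 21.2% and 25.0% in KO, and Prdx1 takes 17.3% and 16.0% in Control and 26.4% and 24.4% in KO.

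The thioredoxins did not differ detectably between the groups. Txn1 (chr4:57943373-57956411, minus strand), the cytosolic thioredoxin, read 253 and 271 TPM in Control and 257 and 291 TPM in KO. The groups overlapped and the fitted log2 change was 0.02 (SE 0.12, 95% interval -0.26 to 0.30, edgeR adjusted p = 0.985). Txn2 (chr15:77915047-77929006, minus strand), the mitochondrial thioredoxin, read 127 and 144 TPM in Control and 142 and 122 TPM in KO. Its log2 fold change was -0.11 (SE 0.14, 95% interval -0.43 to 0.22, edgeR adjusted p = 0.897). The intervals allow a log2 change as high as 0.30 for Txn1 and as low as -0.43 for Txn2, so an equal level was not shown.

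The reductases were both lower in KO without passing the test. Txnrd1 (chr10:82833951-82897712, plus strand), the cytosolic enzyme, read 107 and 147 TPM in Control and 105 and 101 TPM in KO. Control replicate 2 was the high library, and Control replicate 1 lay next to KO replicate 1. The log2 fold change was -0.21 (SE 0.11, 95% interval -0.46 to 0.04, edgeR adjusted p = 0.549). Txnrd2 (chr16:18426384-18479073, plus strand), the mitochondrial enzyme, was the member at the lowest level, with 39.7 and 43.7 TPM in Control and 19.9 and 29.1 TPM in KO. The groups did not overlap. Its log2 fold change of -0.73 was the largest decrease among the members, but it varied widely (SE 0.24, 95% interval -1.30 to -0.17, edgeR adjusted p = 0.377). In CPM it was 30.8 and 41.9 in Control and 23.0 and 20.6 in KO, and DESeq2 called it (DESeq2 adjusted p = 0.0189). Without Control replicate 2 the log2 fold change was -0.50. The effective length of Txnrd2, a mean over the transcripts RSEM found in use, ran from 983 to 1646 bases across the libraries, and its 2 extremes were the 2 KO libraries.

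Prdx2 was set against the mitochondrial members inside each library, which removes differences in depth. The measure was log2(TPM + 1) of Prdx2 minus the mean of that of Prdx3, Txn2 and Txnrd2. It was 2.06 and 2.21 in Control and 1.80 and 1.84 in KO, a difference of -0.32 (SE 0.079), and both KO libraries were below both Control libraries. A two-sided exact permutation test gave p = 0.333, the smallest p that 2 against 2 libraries allow. Each partner was also taken alone. Against Txn2 the Prdx2 log ratio was 1.44 and 1.35 in Control and 0.63 and 0.97 in KO, and against Prdx3 it was 1.64 and 2.23 against 1.35 and 1.56. Against Txnrd2 the groups overlapped, at 3.10 and 3.05 in Control and 3.41 and 2.999 in KO, a difference of 0.13 (exact permutation p = 1). None of these ratios could pass a test with 2 against 2 libraries, and the partners were not compared with each other. Of the mitochondrial-to-cytosolic pairs, Txn2 to Txn1 overlapped between the groups, at -0.98 and -0.91 in Control and -0.85 and -1.25 in KO. Txnrd2 to Txnrd1 was -1.41 and -1.72 in Control and -2.34 and -1.76 in KO, with KO replicate 2 close to Control replicate 2. Over these 5 pairs the smallest adjusted exact permutation p was 0.556.

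**Figure D4:**
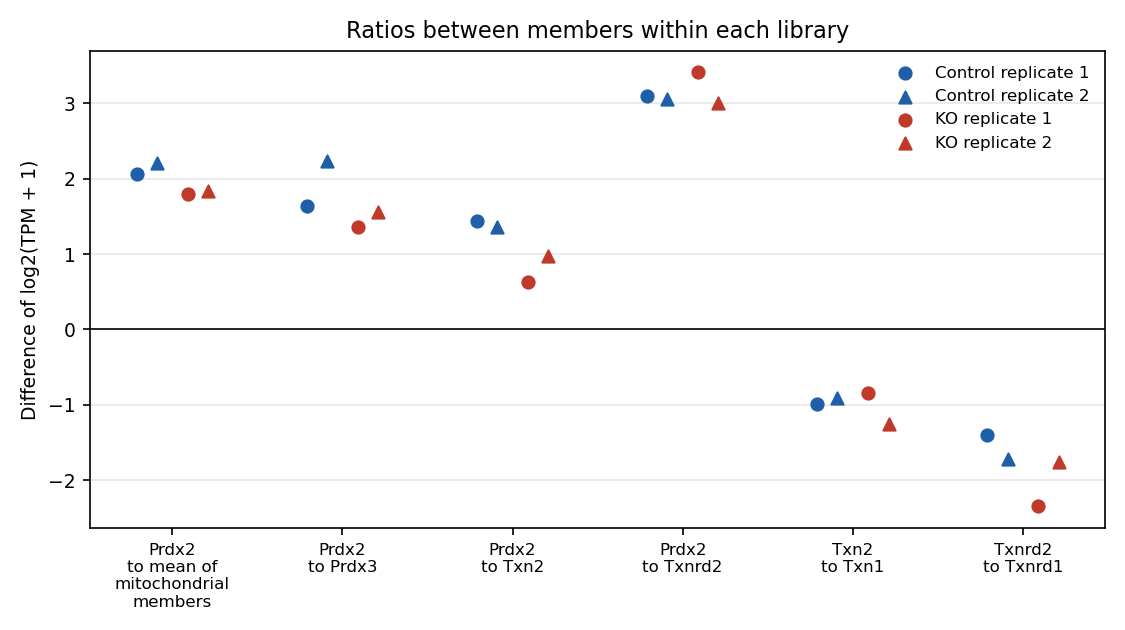
Difference of log2(TPM + 1) between members inside each library (blue, Control; red, KO; circles, replicate 1; triangles, replicate 2). Prdx2 against the mean of the 3 mitochondrial members is 2.06 and 2.21 in Control and 1.80 and 1.84 in KO, whereas Prdx2 to Txnrd2 overlaps between the groups.

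The order of the levels differed between the groups. In Control it ran from Prdx2 (mean 358 TPM) through Prdx6 (299), Txn1 (262), Prdx1 (196), Prdx5 (174), Txn2 (136), Txnrd1 (127), Prdx3 (94.2) and Prdx4 (49.3) to Txnrd2 (41.7). The neighbours from Prdx1 down to Prdx3 overlapped in their replicates, while Prdx2, Prdx6 and Txn1 were each apart from the next. In KO, Txn1 (mean 274 TPM), Prdx1 (254), Prdx2 (230.1) and Prdx6 (230.0) each overlapped with the next in order. Below them came Txn2 (132), Prdx5 (123), Txnrd1 (103), Prdx3 (83.3), Prdx4 (78.1) and Txnrd2 (24.5), and of these only Txn2 and Prdx5 overlapped as neighbours. Prdx2 was thus the highest member in both Control libraries. In KO its values overlapped with those of Prdx1 and Prdx6 and lay below those of Txn1.

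Among 8988 tested genes with a mean of at least 10 TPM, those whose 4 values followed Prdx2 most closely were Dlat, Pik3ca and Minpp1. Likeness was the root mean square distance between centred log2(TPM + 1) values over the 4 libraries, and it was 0.022, 0.033 and 0.036 for these genes. Dlat, a subunit of pyruvate dehydrogenase, read 45.9 and 47.0 TPM in Control and 28.8 and 30.6 TPM in KO. For Txnrd2 the nearest were Rbbp9 (0.050), Dnajc25 (0.058) and Neurl4 (0.066). The match was made in TPM, and on counts it was uneven, closest for Minpp1 and Rbbp9. The log2 fold changes fitted on counts were -0.35 for Dlat, -0.17 for Pik3ca and -0.69 for Minpp1, beside -0.57 for Prdx2. For Rbbp9, Dnajc25 and Neurl4 they were -0.83, -0.23 and -0.05, beside -0.73 for Txnrd2.

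Other genes of the system were taken from 5 lists of 68 genes, all of which were tested. Blvrb was called lower and 0 genes were called higher, and the median log2 fold change was -0.13. At an unadjusted p under 0.05, 14 were lower and 1 was higher, beside 4.61% and 5.81% of all genes. Among 12 regulators of peroxiredoxins and thioredoxins, 0 were called by edgeR, with 1 higher and 1 lower at an unadjusted p under 0.05, and DESeq2 called the same number in each direction. Srxn1 encodes sulfiredoxin, which restores over-oxidized peroxiredoxins, and read 22.5 and 20.5 TPM in Control and 2.40 and 6.40 TPM in KO. In CPM it was 8.16 and 15.6 against 4.30 and 7.28, a log2 fold change of -1.03 (SE 0.50, edgeR adjusted p = 0.527). Its effective length ran from 502 bases in Control replicate 1 to 2553 bases in KO replicate 1, so the TPM and count differences were unlike in size. Sesn2, a stress-induced sestrin, had a log2 fold change of -0.85 (edgeR adjusted p = 0.440). Map3k5, the kinase ASK1 that reduced thioredoxin holds inactive, had 0.48 (edgeR adjusted p = 0.406).

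Among 24 thioredoxin-fold genes, 0 were called by edgeR, and 2 were lower and 0 higher both at an unadjusted p under 0.05 and by DESeq2. Glrx5, the mitochondrial glutaredoxin of iron-sulfur cluster assembly, read 81.4 and 41.4 TPM in Control and 45.2 and 40.5 TPM in KO (log2 fold change -0.77, edgeR adjusted p = 0.200). P4hb, a protein disulfide isomerase, had -0.33 (edgeR adjusted p = 0.356), and Txndc5, another, had -0.26. Of 7 clients of thioredoxin 0 were called by edgeR, 1 was lower at an unadjusted p under 0.05, and DESeq2 called 1 lower. The selenoprotein Msrb1, a methionine sulfoxide reductase, read 68.7 and 53.8 TPM in Control and 36.1 and 33.3 TPM in KO (log2 fold change -0.74, edgeR adjusted p = 0.389). Rrm2, the small subunit of ribonucleotide reductase, differed by -0.16, and Msrb2, the mitochondrial counterpart of Msrb1, by -0.30.

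The reductases need the selenocysteine machinery, and 0 of its 7 genes were called by edgeR or by DESeq2, with 1 lower at an unadjusted p under 0.05. Secisbp2, which binds the selenocysteine insertion element, had a fitted log2 fold change of -0.38 (edgeR adjusted p = 0.476), although its TPM was higher in both KO libraries, at 38.4 and 34.5 against 30.04 and 32.2. Its direction therefore rested on the length correction. Sepsecs, which makes the selenocysteinyl-tRNA, had -0.48, and Sephs1, a relative of selenophosphate synthetase, had 0.31.

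In the list of 18 NRF2 target genes outside the 10 members, Blvrb was called lower. At an unadjusted edgeR p under 0.05, 9 genes were lower and 0 higher, beside 4.61% and 5.81% of all genes. The fitted log2 fold change was below 0 for 14 genes of the list and above 0 for 4. DESeq2 called 8 of the list lower, beside 3.55% of all genes, and 0 higher. The median log2 fold change of the list was -0.44. Blvrb, a heme breakdown enzyme that is also on the erythroid list, read 110 and 129 TPM in Control and 38.0 and 44.2 TPM in KO. It fell by 1.499 on the log2 scale (SE 0.20, edgeR adjusted p = 0.0186), and without KO replicate 1 its edgeR adjusted p was 0.106. Ftl1, the ferritin light chain, read 1148 and 1162 TPM in Control and 889 and 860 TPM in KO (log2 fold change -0.45, edgeR adjusted p = 0.0812). Taldo1, transaldolase of the pentose phosphate pathway, read 355 and 339 TPM in Control and 260 and 265 TPM in KO (log2 fold change -0.45, edgeR adjusted p = 0.156).

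Promoters were searched because several members are textbook NRF2 targets and Prdx2 is expressed in red cells. RefSeq windows of 250 bases before to 50 bases after the start (GRCm38.p6) matched 9 of the 10 members, with 3 start sites for Txnrd1. The antioxidant response element core TGACNNNGC, on either strand, occurred in 12.4% of 32851 promoter windows. Among the members it was found in Prdx1, as GCTGAGTCA, and at 1 of the Txnrd1 start sites, as GCTTTGTCA. The GATA motif AGATAA (11.2% of windows) was found in none of the members' windows, and the CACCC box CCACACCC (3.56%) was found in Prdx3. The Prdx2, Prdx4, Prdx5, Txn1, Txn2 and Txnrd2 windows held none of the 3 motifs, which says only that these letters are not there.

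**Figure D5:**
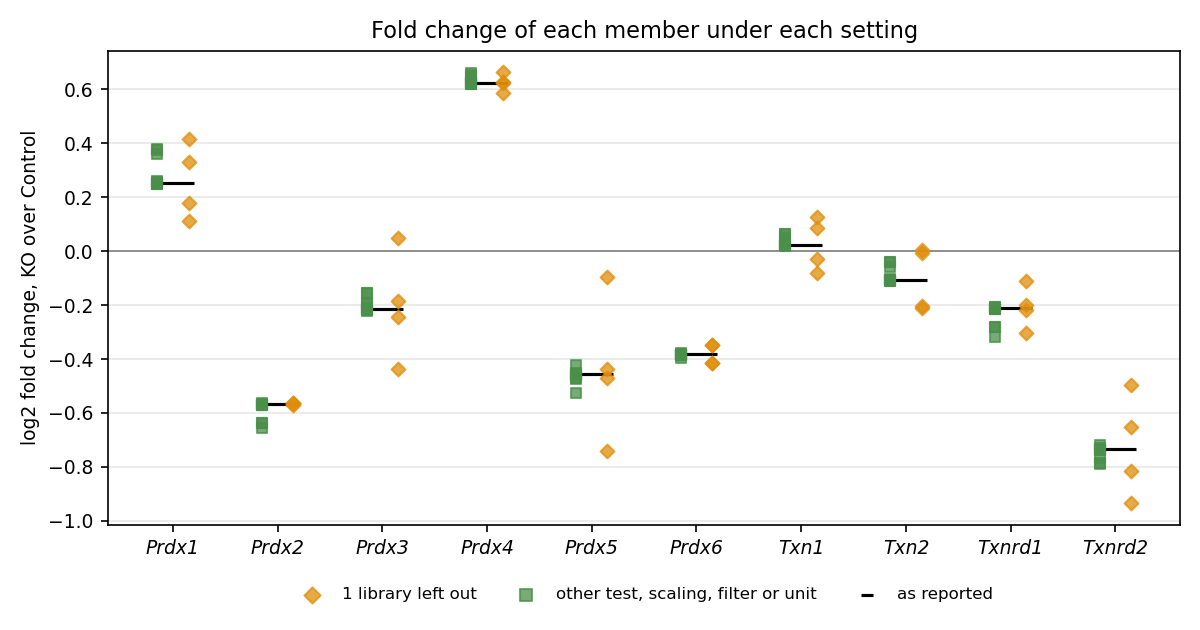
Log2 fold change of each member, KO over Control, as reported (black bar), with 1 library left out (orange diamonds) and with another test, scaling, filter or unit (green squares). Prdx2 lies between -0.66 and -0.56 throughout, whereas Prdx5 ranges from -0.74 to -0.09 and Prdx3, Txn1 and Txn2 cross 0.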

How the data were processed

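RNA-seq libraries of sorted HSCs, 2 Control and 2 KO, were used. The authors deposited expected counts and TPM per gene in RSEM's output format. STAR, RSEM and the mm10 build are named in the submitters' processing notes, with no versions or settings. Labels do not tie libraries to separate mice, and every p-value reflects only how these libraries vary, which may be technical. Expected counts were rounded. Genes passing edgeR's filterByExpr (minimum count 10) were scaled by TMM and tested with the robust quasi-likelihood F test (edgeR 4.0.16, R 4.3.3), with adjusted p under 0.05 as a call. The script was tested on simulated counts that varied less between libraries than these data, so its accuracy on these data was not shown. TPM served for levels and within-library ratios (pseudocount 1). DESeq2 1.42.0, limma 3.58.1, other filters, scalings and units, and omission of each library were alternatives. Named were all members, Cpt1a, overlapping genes (1 is not reported here), the called genes of each pathway list and the 3 with the smallest p, the 3 genes nearest to Prdx2 and to Txnrd2, and few marker genes. Klf1, Alas2, Slc4a1, Kit, Procr, Slamf1, S100a9, Mmp8, Ngp, Camp and Lcn2 were added after their values were seen. The members and lists were chosen with earlier results of these data known. Library totals ran from 20589218 to 34083159 expected counts, and 2 libraries per group limit the precision. Sequences and positions came from GENCODE M21 and RefSeq.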

Additional observations from a re-analysis of the deposited data

How the results depend on the processing

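Of 90 member values under another test, scaling, filter or unit, 82 kept their direction and side of the threshold and 0 reversed. With 1 library left out, 33 of 40 did, and 4 reversed. With 1 library left out, the log2 fold change of Prdx3 ranged from -0.44 to 0.049 (above 0 without Control replicate 1). That of Txn1 ranged from -0.081 to 0.13 (below 0 without KO replicate 2, and -0.03 without Control replicate 1). That of Txn2 ranged from -0.21 to 0.0030 (above 0 without Control replicate 2). The number of members called was 1, became 4 with DESeq2 (Prdx2, Prdx4, Prdx6 and Txnrd2), and was 0 with the effective length offset, either limma fit, posterior mean counts or the replicate block, and 0 to 2 with 1 library left out. The edgeR adjusted p of Prdx2 was 0.0532 with posterior mean counts. The count over all genes was 97, and became 1147 with DESeq2, 196 without a filter, 148 with a minimum count of 50, 4 with the length offset, 5 and 2 with limma (pseudocounts 1 and 0.1), and 42 to 371 with 1 library left out. The pathway lists had 1 called gene, 13 with DESeq2, 2 without a filter or with a minimum count of 50, 0 with the length offset or limma, and 0 to 8 with 1 library left out. In fits that leave out a library, the lone sample of its group is assumed to vary like the others. Prdx2 against the mitochondrial members stayed between -0.39 and -0.23 in every alternative run. Labels give both groups the numbers 1 and 2 and do not say whether same-numbered libraries were prepared together. Deviations of same-numbered libraries had a correlation of -0.003. With 2 libraries per group this cannot show whether a batch was shared. With the replicate block 98 genes were called, the Prdx2 edgeR adjusted p was 0.0591, and the within-number differences of Prdx2 against the mitochondrial members were -0.26 and -0.37 (mean -0.32). Summing members with near-identical gene models was not run, since none shared 90% of its sequence.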
